A study of Mus musculus with 2 samples.

Results

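The TAM receptors, their ligands and a small group of genes for recognition of dying cells were followed in RAW264.7, a macrophage-like line from a mouse tumour, after LPS treatment. The 8 genes were chosen by symbol from the 54532 genes of the deposited table: the receptor kinases Axl, Mertk and Tyro3, their ligands Gas6 and Pros1, the bridging molecule gene Mfge8, and the receptor genes Stab1 and Timd4. All 8 symbols were found once each. The series holds 2 RNA-seq libraries, 1 labelled RNF138 knockout and 1 labelled wild type. Both cultures received lipopolysaccharide (LPS), a bacterial agonist of Toll-like receptor 4, for 3 h at 100 ng/ml. With 1 library per group no difference has a replicate check, no test was made, and every interval below is at 95% and covers counting error only. The making of the knockout line, and whether it is 1 clone, were left unstated in the labels.

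TYRO3, AXL and MERTK are receptor tyrosine kinases that do not bind dying cells directly. The vitamin K-dependent proteins GAS6 and protein S bind phosphatidylserine exposed on the dying cell with one end and a TAM receptor with the other. In macrophages this contact serves both engulfment of apoptotic cells, called efferocytosis, and restraint of Toll-like receptor and cytokine responses. MFG-E8 forms a parallel bridge from phosphatidylserine to integrins, while stabilin-1 and TIM-4 bind phosphatidylserine themselves.

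The KO-labelled library held 19032311 counts and the WT-labelled library 15573989. Rnf138, the gene targeted in the knockout, had 4764 counts in the KO-labelled library and 602 counts in the WT-labelled library, a scaled ratio of 6.55 (6.01 to 7.14). The targeted transcript thus goes against the label, so the libraries are named by their labels (KO-labelled and WT-labelled) and every direction rests on these. Csf1r, the receptor gene on which macrophages depend, stood at 10467 counts in the KO-labelled library and 8437 counts in the WT-labelled library. Of 12 macrophage markers, all 12 were measured (mean count 10 or more), 1 was higher, 1 was lower and 10 did not reach 2-fold. By the size rule given below, 6.54% of all measured genes were higher and 3.62% lower. The markers leaned upward in the KO-labelled library: 9 of the 12 had a log2 ratio above 0. Their median log2 ratio was 0.35, beside 0.02 for all measured genes. Lyz2, the myeloid lysozyme gene, was 2.55-fold higher in the KO-labelled library (2.46 to 2.64) and Adgre1, which encodes F4/80, was 3.58-fold lower (3.02 to 4.26). No unstimulated culture was analysed here, so no value measures a response to LPS.

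The 250 bases before the transcription start of the TAM receptor genes are shown because Axl was well above its close relatives Mertk and Tyro3 in the WT-labelled library. They are RefSeq sequences on GRCm38.p6, written 5′ to 3′ on the strand of the gene, and capitals mark matches to the motifs named next. The regions are chr7:25788734-25788983 on the minus strand for Axl, chr2:128698665-128698914 on the plus strand for Mertk and chr2:119799264-119799513 on the plus strand for Tyro3. The Tyro3 window lies inside the gene as the deposited coordinates give it (119797733 to 119818104). It thus precedes a RefSeq start that differs from the start of the counted gene.
Axl: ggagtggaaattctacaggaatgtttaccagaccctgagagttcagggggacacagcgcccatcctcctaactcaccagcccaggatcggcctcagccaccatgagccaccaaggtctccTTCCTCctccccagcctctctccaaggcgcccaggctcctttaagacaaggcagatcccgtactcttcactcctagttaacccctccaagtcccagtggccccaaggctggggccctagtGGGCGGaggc
Mertk: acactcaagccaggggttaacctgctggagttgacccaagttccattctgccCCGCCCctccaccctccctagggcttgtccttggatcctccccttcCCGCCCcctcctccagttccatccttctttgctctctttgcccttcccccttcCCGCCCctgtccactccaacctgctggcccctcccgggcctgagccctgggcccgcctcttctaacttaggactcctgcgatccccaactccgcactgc
Tyro3: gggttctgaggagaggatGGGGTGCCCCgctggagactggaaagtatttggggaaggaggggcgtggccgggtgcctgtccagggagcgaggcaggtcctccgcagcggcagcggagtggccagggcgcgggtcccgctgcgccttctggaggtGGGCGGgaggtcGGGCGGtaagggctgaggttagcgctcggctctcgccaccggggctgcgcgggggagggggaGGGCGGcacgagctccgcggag
The motifs searched on both strands were the GC box GGGCGG, the PU.1 core GAGGAA, the AP-1 site TGANTCA, the STAT site TTCNNNGAA, the interferon response core GAAANNGAA and the kappaB site. The Axl window held 1 GC box, which ends 5 bases before the start, and 1 PU.1 core. The Mertk window held 3 GC boxes, and the Tyro3 window held 3 GC boxes and 1 kappaB match. A match is a string of letters and no evidence of binding in these cells: of 32851 windows of the same length in the RefSeq table, 32.7% held a GC box, 23.3% a PU.1 core and 7.25% a kappaB match. None of the receptor windows held the AP-1, STAT or interferon response letters, which 6.75%, 7.02% and 7.13% of all windows held. Among the other members, Gas6 held 4 GC boxes and Mfge8 held 4 GC boxes and 1 PU.1 core. Pros1 held 5 GC boxes, of which a pair overlaps, and 1 STAT match. Stab1 held 1 PU.1 core and Timd4 held 1 interferon response core. GC content was 60.0% in the Axl window, 63.6% in the Mertk window and 73.2% in the Tyro3 window.

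Axl was the member that stood apart, and it was low in the KO-labelled library. AXL is the TAM receptor that binds GAS6 with high affinity and is known in mouse macrophages as a receptor raised by inflammatory stimuli. The gene (ENSMUSG00000002602, GRCm38 chromosome 7, 25757273 to 25788705, minus strand) had 16 counts in the KO-labelled library, against 157 counts in the WT-labelled library. In CPM, scaled counts in each 1000000 of a library, these were 0.845 (exact Poisson interval 0.483 to 1.37) in the KO-labelled library and 10.0 (8.52 to 11.7) in the WT-labelled library. The intervals do not overlap. Axl was 11.9-fold lower in the KO-labelled library, with an exact interval of the ratio from 7.08-fold to 21.3-fold. On the log2 scale with 0.5 counts added to each library, the difference was -3.53, and the log2 fold change in the authors' deposited table was -3.56. The fewer counts sit in the deeper library. In bulk RNA, fewer cells carrying a transcript and less of it per cell cannot be told apart.

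Of the 12668 measured genes, 0.663% had a log2 ratio at least as far from 0 as that of Axl in either direction, and 35 had a lower one. Since weakly counted genes scatter more, Axl was also placed among the 1980 genes with a mean count between 50 and 200, of which 9 had a lower ratio. The SD of the log2 ratio over those 1980 genes was 0.89. A size rule served as the call for a difference: the gene had to be measured, to differ 2-fold or more either way, and to have a ratio interval without 1. Of the 8 members, 5 were measured. By that rule 1 of these 5, Axl, was lower in the KO-labelled library and 0 were higher. Over all measured genes, 3.62% were lower and 6.54% were higher by the same rule. With 5 measured members, a count of 1 gives no precise share to set against that background.

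Mertk and Tyro3, the other TAM receptor genes, were close to absent from both libraries. MERTK is the main efferocytosis receptor of resident macrophages. Its gene (ENSMUSG00000014361, chromosome 2, 128698956 to 128802894) had 1 count in the KO-labelled library and 0 counts in the WT-labelled library. A count of 0 was read as up to 3 counts, or 0.192 CPM in the WT-labelled library, so no fold is given. The exact Poisson interval there reaches 0.236 CPM. Tyro3 (ENSMUSG00000027298, chromosome 2, 119797733 to 119818104), whose product is best known from the nervous system, had 10 counts in the KO-labelled library and 1 count in the WT-labelled library. That ratio was 8.27, with an interval from 1.18 to 359, and its mean of 5.5 counts lies under the minimum for a measured gene. Tyro3 was thus on the other side of 1 from Axl, on few reads.

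Per length, the authors' FPKM (reads scaled to gene length and library size) allows the receptors to be set beside each other. Summed over the TAM receptors, the level was 0.274 FPKM in the KO-labelled library and 2.08 FPKM in the WT-labelled library. Axl made up 63.3% of that sum in the KO-labelled library and 99.5% in the WT-labelled library. Tyro3 made up 32.1% in the KO-labelled library and 0.515% in the WT-labelled library. The shares of the KO-labelled library rest on 27 counts in all, against 158 counts in the WT-labelled library. Within the KO-labelled library, Axl stood at 1.97 times Tyro3 per length (0.841 to 4.86), so their order was not resolved at this depth. Within the WT-labelled library the ratio of Axl to Tyro3 was 193 (34.2 to 7685).

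**Figure D1:**
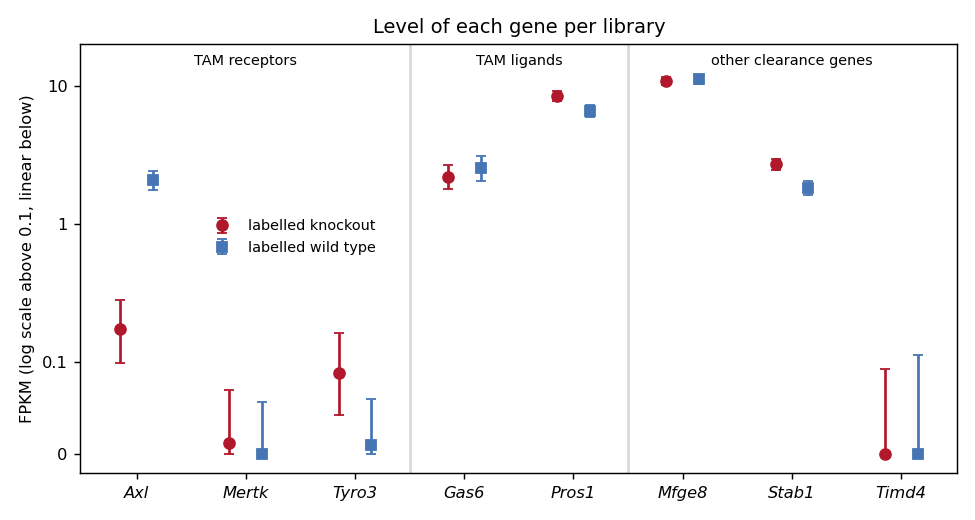
Level of each gene in FPKM, on an axis that is logarithmic above 0.1 and linear below it. Circles are the KO-labelled library and squares the WT-labelled library, with exact Poisson intervals at 95%. Axl stands at 0.174 FPKM in the KO-labelled library, against 2.07 FPKM in the WT-labelled library. The intervals of Gas6 and Mfge8 overlap between the libraries. Pros1 and Stab1 are higher in the KO-labelled library, by less than 2-fold, with intervals that do not overlap.

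The ligand genes were present in both libraries, and neither reached a 2-fold difference. Gas6 encodes the ligand that binds all TAM receptors (ENSMUSG00000031451, chromosome 8, 13465374 to 13494490). It had 102 counts (5.39 CPM, 4.39 to 6.54) in the KO-labelled library and 97 counts (6.19 CPM, 5.02 to 7.56) in the WT-labelled library. The ratio was 0.870 (0.652 to 1.16), an interval that includes 1. Pros1 encodes protein S, a plasma anticoagulant cofactor and a ligand of MERTK and TYRO3 (ENSMUSG00000022912, chromosome 16, 62854307 to 62929346). It had 628 counts (33.2 CPM, 30.6 to 35.9) in the KO-labelled library and 404 counts (25.8 CPM, 23.3 to 28.4) in the WT-labelled library. The ratio of Pros1 was 1.29 (1.13 to 1.46), an interval wholly above 1. That is a weak criterion here, since the interval of the ratio excluded 1 in 59.6% of measured genes. The log2 ratio of Pros1 was 0.36, and 43.2% of measured genes were at least as far from 0.

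Pros1 was the more abundant ligand transcript per length in both libraries. It stood at 3.84 times Gas6 per length in the KO-labelled library (3.11 to 4.78) and at 2.60 times Gas6 in the WT-labelled library (2.08 to 3.27). These intervals overlap. Summed, the ligands stood at 10.6 FPKM in the KO-labelled library and 9.10 FPKM in the WT-labelled library. The summed ligand level was above the summed receptor level in each library. Gas6 stood at 12.6 times Axl per length in the KO-labelled library (7.39 to 22.9) and at 1.22 times Axl in the WT-labelled library (0.938 to 1.58).

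Mfge8 was the most abundant member and differed least. Its product, a secreted glycoprotein, links phosphatidylserine to integrins on the phagocyte (ENSMUSG00000030605, chromosome 7, 79133768 to 79149060). Mfge8 had 926 counts (48.9 CPM, 45.8 to 52.2) in the KO-labelled library and 783 counts (50.0 CPM, 46.6 to 53.6) in the WT-labelled library. The ratio was 0.978, and its interval from 0.889 to 1.08 leaves out any difference of 2-fold by counting error. Stab1 encodes stabilin-1, a large scavenger receptor of macrophages and sinusoidal endothelium (ENSMUSG00000042286, chromosome 14, 31139013 to 31168641). It had 509 counts (26.9 CPM, 24.6 to 29.3) in the KO-labelled library and 283 counts (18.1 CPM, 16.0 to 20.3) in the WT-labelled library. Its ratio of 1.49 (1.28 to 1.73) was the largest upward one among the measured members and under the 2-fold limit, and 25.7% of measured genes were at least as far from 0 on the log2 scale. Timd4, the gene of the tethering receptor TIM-4 (ENSMUSG00000055546, chromosome 11, 46810800 to 46844332), had 0 counts in both libraries. That allows a level of up to 0.158 CPM in the KO-labelled library and 0.192 CPM in the WT-labelled library.

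**Figure D2:**
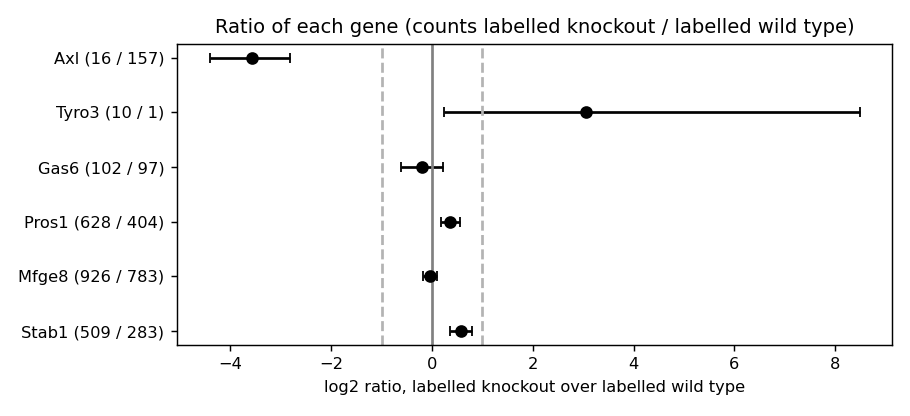
Ratio of the scaled counts on a log2 axis, with no counts added, for the 6 members with more than 3 counts in a library. Bars are exact intervals at 95%, dashed lines mark 2-fold, and the counts stand beside each name with the KO-labelled library first. The interval of Axl lies wholly below the lower dashed line, and that of Tyro3 spans from 1.18 to 359 on the linear scale.

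The order of the members by FPKM differed between the libraries in the places of Stab1, Gas6 and Axl. In the KO-labelled library the order was Mfge8 (10.8 FPKM), Pros1 (8.39), Stab1 (2.70), Gas6 (2.19), Axl (0.174), Tyro3 (0.0881), Mertk (0.0126) and Timd4 (0). Neighbouring intervals overlapped for Stab1 and Gas6 and for every neighbouring pair from Axl downwards. In the WT-labelled library the order was Mfge8 (11.1 FPKM), Pros1 (6.57), Gas6 (2.53), Axl (2.07), Stab1 (1.83), Tyro3 (0.0107), and then Mertk and Timd4 at 0. There the intervals of Gas6 and Axl overlapped, as did those of Axl and Stab1, and those of Tyro3, Mertk and Timd4. Among measured genes, 61.0% had a lower FPKM than Mfge8 in the KO-labelled library and 61.9% in the WT-labelled library. For Axl these shares were 2.31% in the KO-labelled library and 26.9% in the WT-labelled library.

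**Figure D3:**
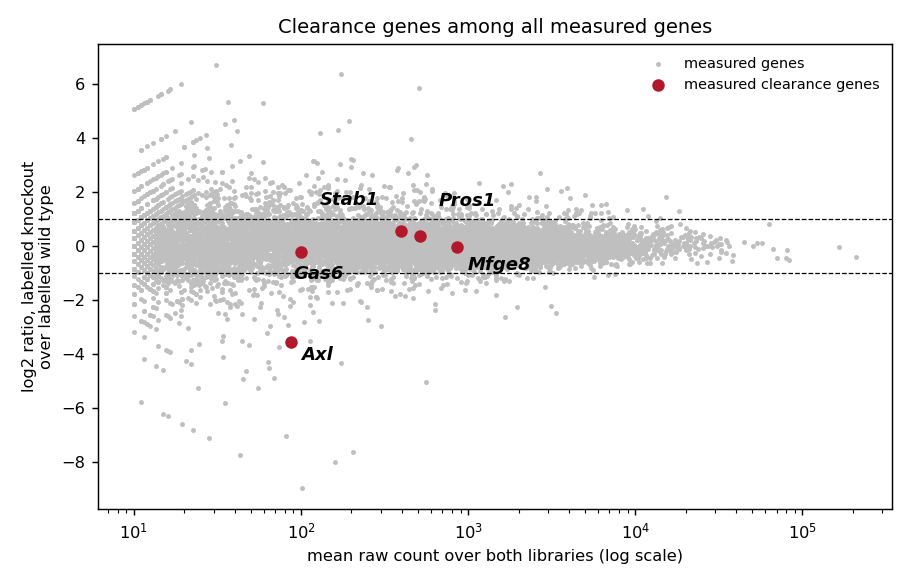
Log2 ratio of each measured gene (grey) against its mean raw count on a log axis, with the 5 measured members in red and dashed lines at 2-fold. Axl lies at -3.53, below most genes of its count, and the other 4 lie between the dashed lines.

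The nearest measured gene on each side of Axl had similar counts in both libraries. Hnrnpul1, 2516 bases from Axl, had 4831 counts in the KO-labelled library and 4202 counts in the WT-labelled library, a ratio of 0.951 (0.912 to 0.991). On the other side the nearest measured gene was Rnf170-ps, 283368 bases away, with 23 counts in the KO-labelled library and 20 counts in the WT-labelled library. Genes that overlap a member were not considered as neighbours. With those left out, the closest measured neighbour of Stab1, Nisch, had a ratio of 0.961 (0.919 to 1.01). That of Pros1, Arl13b, had a ratio of 1.64 (1.37 to 1.97). Of the 16 neighbours, the single one past the size rule was Isg20, an interferon-stimulated exonuclease gene 213372 bases from Mfge8. Isg20 was 2.52-fold higher in the KO-labelled library (1.81 to 3.55). By that rule 6.54% of all measured genes were higher and 3.62% lower, so the count among neighbours lies near the background. By GENCODE M21, exons of other genes covered 1.33% of the exon bases of Gas6 (Tmem255b) and 1.09% of those of Stab1 (Nt5dc2), both on the opposite strand, and none of those of the other 6 members.

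Other receptors and bridging molecules for dying cells were a mixed group with a median near 0. Of 25 listed genes 14 were measured, of which 2 were higher in the KO-labelled library, 1 was lower and 11 did not pass the size rule, beside 6.54% higher and 3.62% lower over all measured genes. Their median log2 ratio was -0.01, beside 0.02 for all measured genes. Cd36, a scavenger receptor that works with integrins in uptake of apoptotic cells, had 40 counts in the KO-labelled library and 1083 counts in the WT-labelled library, 32.7-fold lower (23.9 to 46.1). Its drop on the log2 scale, -5.02, exceeded that of Axl. The scavenger receptor genes Msr1 and Olr1 went the other way. Msr1 was 5.33-fold higher in the KO-labelled library (3.23 to 9.31), with 116 counts there and 18 counts in the WT-labelled library. Olr1, which encodes the oxidised LDL receptor LOX-1, was 2.40-fold higher (1.68 to 3.50), with 122 counts in the KO-labelled library and 42 counts in the WT-labelled library. The integrin genes of the MFG-E8 receptors, named after their values were seen, did not pass the rule. Itgav had a ratio of 0.651 (0.628 to 0.674), Itgb5 a ratio of 0.972 (0.919 to 1.03), and Itgb3 had 24 counts in the KO-labelled library and 31 in the WT-labelled library. Several further clearance genes were at or near 0: among those also named after their values were seen, Havcr1 had 0 counts in both libraries, and C1qa had 6 counts in the KO-labelled library and 1 in the WT-labelled library.

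Genes acting behind the receptors were read beside the background of 6.54% higher and 3.62% lower among all measured genes. Of 17 measured engulfment signalling genes, 1 was higher, 1 was lower and 15 did not pass, with a median log2 ratio of -0.11. Abca1, the cholesterol exporter gene, was 2.08-fold higher in the KO-labelled library (1.37 to 3.22), with 83 counts there and 33 counts in the WT-labelled library. Bcar1, the gene of the adaptor p130Cas, was 2.37-fold lower (1.82 to 3.12). All 16 genes of phagosome maturation were measured, 0 were higher, 1 was lower and 15 did not pass (median -0.12). The lower one was Uvrag, a partner of the lipid kinase VPS34, 2.12-fold lower (1.93 to 2.32), with 729 counts in the KO-labelled library and 1277 counts in the WT-labelled library. None of the 8 genes of phosphatidylserine exposure passed (median -0.14). The most abundant were Tmem30a, the subunit that the flippases need, with a ratio of 0.844 (0.796 to 0.895), and Ano6, a scramblase gene, with a ratio of 0.845 (0.789 to 0.906). Of 9 measured genes for find-me and don't-eat-me signals, 2 were higher, 0 were lower and 7 did not pass (median 0.07). Cx3cl1, the gene of the chemoattractant fractalkine, was 7.61-fold higher (3.04 to 24.5), with 46 counts in the KO-labelled library and 5 counts in the WT-labelled library. The nucleotide receptor gene P2ry2 was 2.02-fold higher (1.42 to 2.93), with 110 counts in the KO-labelled library and 45 counts in the WT-labelled library.

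**Figure D4:**
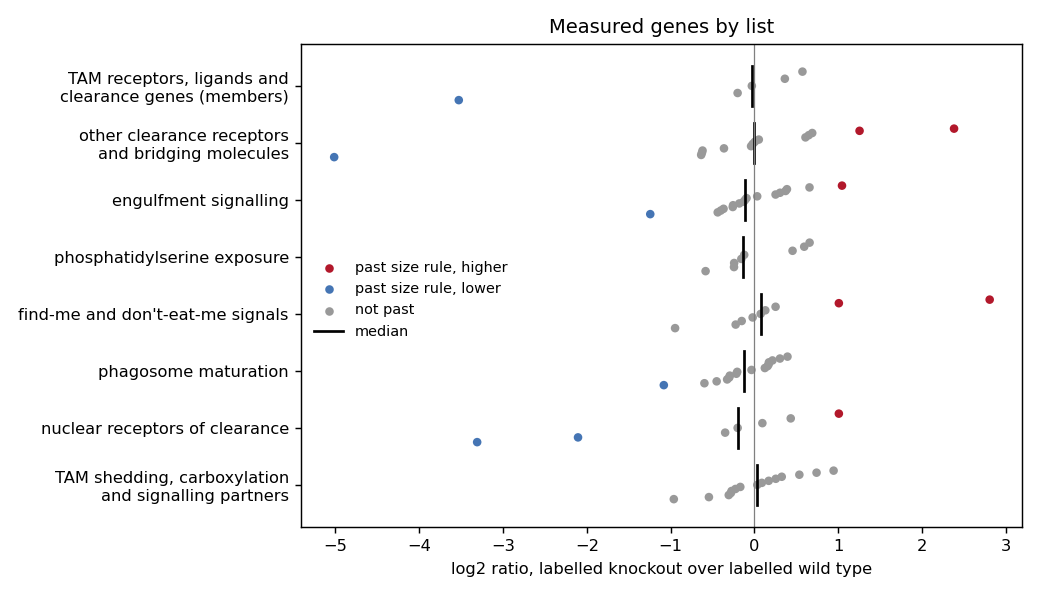
Log2 ratio (KO-labelled over WT-labelled) of each measured gene in the TAM and clearance group and in 7 related lists, as points, with the median of each list as a black line. Red points were past the size rule and higher, blue points past it and lower, and grey points did not pass. The medians lie between -0.20 and 0.07, with Axl and Cd36 as the far low points of the upper lists.

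Nuclear receptors known to regulate clearance genes held genes past the size rule in both directions. Liver X receptors and their partners, the retinoid X receptors, are known to raise Mertk in mouse macrophages. Rxra had 7 counts in the KO-labelled library and 61 counts in the WT-labelled library, 10.5-fold lower (4.81 to 27.3). Nr4a1 was 4.32-fold lower (3.35 to 5.63), while Nr1h3, the gene of liver X receptor alpha, was 2.03-fold higher (1.32 to 3.19), with 76 counts in the KO-labelled library and 31 counts in the WT-labelled library. Pparg had 0 counts in both libraries. Of the 7 measured genes of this list, 1 was higher, 2 were lower and 4 did not pass, with a median log2 ratio of -0.20, beside 6.54% higher and 3.62% lower over all measured genes.

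Genes for shedding, vitamin K-dependent carboxylation and signalling of the TAM system did not pass the size rule in any of 15 measured cases of 17 listed, and their median was 0.03. With 6.54% of all measured genes higher and 3.62% lower, a list of this size would hold few calls at the background share. Adam17, the protease that cleaves MERTK from the surface, had a ratio of 1.02 (0.992 to 1.06), and Adam10, a protease that cleaves AXL, had a ratio of 0.686 (0.659 to 0.714). TAM receptors signal with the interferon receptor to induce the SOCS inhibitors, and those genes are named here after their values were seen. Socs3 had a ratio of 1.45 (1.39 to 1.52), Socs1 a ratio of 1.26 (0.875 to 1.82) and Ifnar1 a ratio of 1.12 (1.04 to 1.21). The other receptor chain gene, Ifnar2, had a ratio of 0.827 (0.752 to 0.910), and the kinase gene Jak1 a ratio of 0.808 (0.768 to 0.851). The carboxylation genes are also named after their values were seen. The carboxylase gene Ggcx, whose product matures GAS6 and protein S, had a ratio of 1.06 (0.818 to 1.39). Vkorc1 had a ratio of 0.509 (0.293 to 0.868), with 24 counts in the KO-labelled library and 39 counts in the WT-labelled library. Vkorc1l1 had a ratio of 0.822 (0.746 to 0.906).

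Most markers of other cell types were at or near 0, with Lck and Vwf as the measured ones. The 6 fibroblast markers summed to 0 counts in the KO-labelled library and 8 counts in the WT-labelled library, with Dcn and Pdgfra at 0 in both, beside 16 counts of Axl in the KO-labelled library and 157 in the WT-labelled library. The 5 endothelial markers summed to 22 counts in the KO-labelled library and 17 counts in the WT-labelled library, with Kdr and Emcn at 0 in both. Most of these came from Vwf, with 18 counts in the KO-labelled library and 10 counts in the WT-labelled library. The 5 epithelial markers summed to 1 count in the KO-labelled library and 0 counts in the WT-labelled library, with Epcam at 0 in both. The 5 B cell markers summed to 8 counts in the KO-labelled library and 5 counts in the WT-labelled library, with Ms4a1 at 0 in both. The 5 T cell markers summed to 58 counts in the KO-labelled library and 25 counts in the WT-labelled library, nearly all from the kinase gene Lck, 2.07-fold higher (1.24 to 3.56), with Cd3e and Cd4 at 0 in both.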

How the data were processed

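RNA-seq of LPS-treated RAW264.7 cells was deposited as a single table for 1 library labelled RNF138 knockout and 1 labelled wild type, mapped to samples by genotype. The authors deposited raw counts per gene; the submitters' processing notes name featureCounts 1.5.0-p3, HISAT2 2.0.5, CASAVA 1.8 and the build GRCm38 (mm10), with no roles. Strand setting, annotation release and filters were not given in the sources used here. Deposited FPKM served to compare genes per length. A scaled-count signal, log2 fold changes and p-values also stand in the authors' deposited table. Its p-values are not reported, because 1 library per group gives no spread. Gene lengths and coordinates of the members equal those of GENCODE M21.

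Counts were scaled with TMM factors (edgeR 4.0.16, R 4.3.3), 0.995 for the KO-labelled library and 1.01 for the WT-labelled library. Neither edgeR nor DESeq2 was used to test genes. Intervals at 95% were exact Poisson for a level and exact Clopper-Pearson, conditional on the summed count, for a ratio (scipy 1.17.1). They cover counting error only, and PCR reads without molecular identifiers are not independent molecules. A gene was measured at a mean count of 10 or more; a ratio passed the size rule at 2-fold with an interval excluding 1. Log2 ratios had 0.5 counts added. A count of 0 was read as up to 3 counts, a set floor that lies under the upper end of the exact Poisson interval.

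The members and lists were chosen with earlier results of these data known. Named genes were the members, Rnf138, and up to 4 genes of each list past the size rule or its 2 most abundant. The nearest measured gene on each side of a member was also named, leaving out genes that overlap it. Others are said to be named after their values were seen. Some genes are not reported here. No gene was sought for a like pattern, since a pattern over 2 libraries is 1 ratio. The ratios and intervals were tested on simulated Poisson counts, which hold only the counting error that the intervals assume. That check cannot speak to spread between libraries. Alternatives were total counts, upper-quartile factors or DESeq2 1.42.0 size factors, the FPKM plus 1 on a log2 scale, 5 counts added, no count minimum, a minimum of 100, 1.5-fold and 4-fold limits, no interval, an interval wholly beyond 2-fold, and protein-coding genes alone.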

Additional observations from a re-analysis of the deposited data

How the results depend on the processing

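No paired analysis was possible because each group had 1 library, and no library could be left out. Of 187 recomputed values, 169 stayed within a set limit and 18 moved. The limit was the counting interval for a gene and 1.5 times for a count. For a list median it was the median half-width of its genes' intervals, which is not the error of the median. The 3 other scalings shifted all log2 ratios alike, by -0.010 to -0.017, so agreement under them was nearly fixed in advance. A change of sign was looked for only in the called member, Axl, which kept its sign. Medians near 0 did change sign. That of the find-me and don't-eat-me genes went from 0.07 to -0.09 with a minimum mean of 100. That of the other clearance receptors went from -0.01 to 0.05 with no count minimum. Over TMM and the 3 other scalings the log2 ratio of Axl ran from -3.55 to -3.53 and that of Stab1 from 0.56 to 0.57. On log2 of FPKM plus 1, which shrinks ratios of weakly expressed genes by construction, Axl stood at -1.39 and Tyro3 at 0.11. With no count minimum 1 member, Tyro3, was higher. With a minimum mean of 100, 0 members were lower, because Axl (mean 86.5) was no longer considered; 327 genes in all were then higher and 161 lower, no gene was higher among other clearance receptors (0), engulfment signalling (0), find-me signals (0) or nuclear receptors (0), and 1 nuclear receptor gene was lower. Upper-quartile factors left 1 find-me gene higher. Over the whole table, 1634 genes were higher and 1021 lower at 1.5-fold, 218 higher and 128 lower at 4-fold, and 353 higher and 185 lower with the interval wholly beyond 2-fold. Axl passed in each of these last 3. Depth limits Mertk, Tyro3 and Timd4, whose counts allow no ratio (Mertk, Timd4) or a ratio with a wide interval (Tyro3).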
